A study of Mus musculus with 30 samples.

Results

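The data compared here are gene expression profiles of neutrophils from the brains of TREM1 knockout (KO) and wild-type (WT) mice after experimental stroke, 9 of the 30 arrays of the series. Membership was taken from the sample titles: 5 arrays were titled as TREM1 knockout neutrophils and 4 as WT neutrophils. The mice were C57BL/6 males of 8 to 10 weeks, of genotype TREM1-/- or TREM1+/+. In every animal of both genotypes the middle cerebral artery was occluded for 45 min, and cells were taken 48 h after reperfusion, so no group without stroke entered the comparison. The injured hemisphere was perfused free of blood, dissociated, passed through a 70 µm strainer and depleted of myelin, and neutrophils were sorted as CD45Hi, CD11b+, Ly6G+ cells. The remaining arrays held macrophages (CD45Hi, CD11b+, Ly6G-), 3 from WT and 6 from KO mice, and microglia (CD45Lo, CD11b+, and Ly6G+ as the labels print it), 6 of each genotype, and are used below only for reference levels and for tests of a difference between cell types. The labels call the arrays biological replicates. They do not say whether an array held cells of 1 mouse or of pooled mice, nor which part of the gene was deleted, in which cells, or whether littermates served as controls. Values are log2 intensities, on which a difference of 1 is a doubling, and levels of different genes are not comparable on this scale. The label check and the lists rest on annotation that named 19508 of 22103 transcript clusters, the probe groups of the array.

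TREM1 is an activating receptor of the immunoglobulin superfamily on neutrophils, monocytes and macrophages. It signals through the adaptor DAP12 and strengthens responses started by pattern recognition receptors such as the Toll-like receptors. Neutrophils are short-lived granulocytes that enter the ischemic brain within the first days of a stroke. They carry their granule proteins and oxidative burst largely ready-made, keep few mitochondria and a sparse endoplasmic reticulum, and are themselves cleared by phagocytes as they age.

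The neutrophil label was checked against defining markers. S100a9, a subunit of calprotectin, read 17.34, 17.85, 17.94 and 17.43 in WT and 16.54, 17.27, 17.14, 16.74 and 17.28 in KO neutrophils, against 8.50 in WT and 8.11 in KO macrophages. Cxcr2, the main chemokine receptor of neutrophils, read 16.38, 16.77, 16.47 and 16.11 in WT and 15.49, 16.06, 15.75, 15.79 and 15.37 in KO neutrophils, against 8.46 in WT and 7.84 in KO macrophages. Both genes stood far above the macrophage arrays in all 9 neutrophil arrays, as the label requires, and the defining marker Ly6g was not named in the annotation used here. Averaged over 28 measured neutrophil markers, the level was 13.63, 15.46, 14.50 and 13.66 in WT neutrophils 1 to 4 and 12.42, 13.56, 13.03, 13.35 and 13.51 in KO neutrophils 1 to 5, against 8.23 to 9.34 in macrophage arrays. All 28 markers had a negative difference. In the test described below 3 of them (10.7%) passed as lower, against 1.19% of all clusters. Trem1, the knocked-out gene, is counted among the 28 and among the 3.

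Markers of other cells also differed between the arrays. The mean of 28 measured monocyte and macrophage markers was 12.15, 11.65, 11.62 and 11.09 in WT neutrophils 1 to 4 and 13.13, 12.70, 13.23, 13.02 and 12.72 in KO neutrophils 1 to 5, so the genotypes did not overlap, and macrophage arrays lay higher still at 13.65 to 14.06. Of these markers 13 passed as higher and 1 as lower in KO, and none of the 28 had a KO mean under 6.63, the median of all cluster means. C1qb, a subunit of complement C1q, read 13.80, 10.58, 10.40 and 10.34 in WT and 14.06, 14.17, 14.38, 14.01 and 13.29 in KO neutrophils, and WT neutrophil 1 lay among the KO arrays for this gene. Fcgr1, an Fc receptor of macrophages, read 13.85, 12.71, 13.89 and 11.74 in WT and 15.26, 14.93, 14.99, 14.79 and 14.43 in KO neutrophils, with no overlap. Ccr2, a receptor of inflammatory monocytes, read 7.52, 8.75, 9.96 and 8.11 in WT and 11.01, 8.18, 11.27, 11.16 and 11.70 in KO neutrophils, against 15.32 in WT and 15.28 in KO macrophages. The Ccr2 ranges overlapped, and every neutrophil array lay at least 3 log2 units below the macrophage means. Other markers of the list did not lie so far below. The KO neutrophil mean of C1qb was 13.98, against 14.02 in WT and 13.89 in KO macrophages. For Trem2 it was 12.87, against 12.53 in WT and 12.90 in KO macrophages. Both macrophage means exceeded the KO neutrophil mean for 17 of the 28 markers. A second pattern separated WT arrays: the mean of 19 cartilage markers was 6.33, 6.58, 6.72 and 8.38 in WT neutrophils 1 to 4 and 5.91, 5.94, 6.12, 5.90 and 6.57 in KO neutrophils 1 to 5, and WT neutrophil 4 alone exceeded 8. The mean of 16 fibroblast markers was likewise highest in that array, at 9.77, against 7.35 to 8.27 in the other WT arrays. WT neutrophil 2 had the highest neutrophil marker mean. Homeostatic microglia markers had a median difference of 0.01, and 3 of 19 had a KO mean below 6.63. Their mean was 9.29 to 10.14 in WT and 9.07 to 10.41 in KO neutrophil arrays. It was 8.63 to 9.44 in macrophage and 13.10 to 14.24 in microglia arrays. KO means lay below 6.63 for 16 of 18 markers of T and NK cells and 10 of 11 of B cells. The count was 10 of 12 for neurons, 15 of 20 for endothelial and mural cells and 14 of 19 for cartilage. It was 8 of 16 for fibroblasts and 4 of 10 for erythroid cells and platelets. Of the 18 markers of T and NK cells 2 (11.1%) passed as lower. All 19 cartilage markers had a negative difference, and none passed. The plot of marker lists by array shows these levels. Because the samples are bulk RNA, a change in the number of cells of a type and a change in RNA per cell cannot be told apart in any result below.

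**Figure D1:**
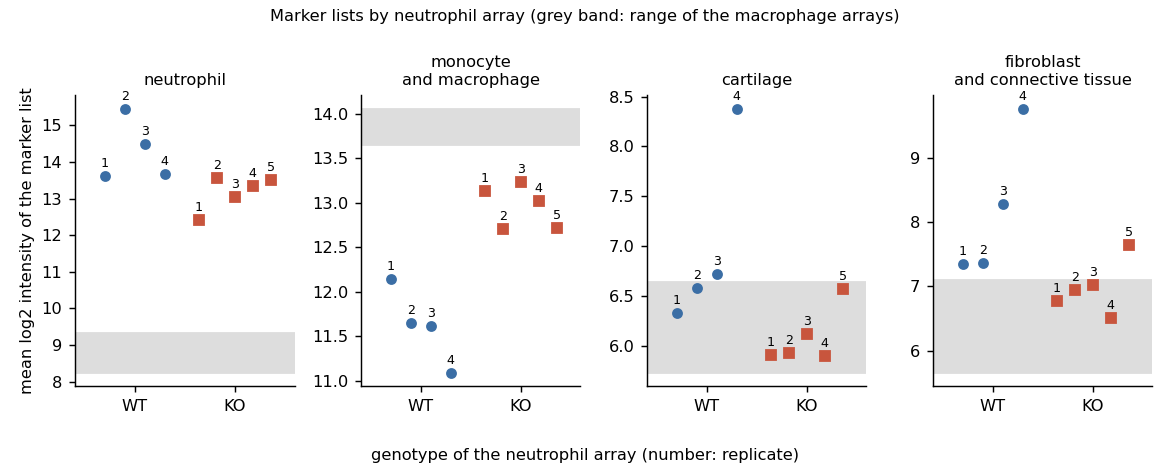
Mean log2 intensity of 4 marker lists (vertical axes, which do not start at 0) in each WT (blue circles) and KO (red squares) neutrophil array, numbered by replicate, with the range of the 9 macrophage arrays as a grey band. The monocyte and macrophage list was higher in all 5 KO than in all 4 WT neutrophil arrays, and WT neutrophil 4 had the highest cartilage and fibroblast means.

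Trem1 itself read 17.20, 17.52, 17.27 and 16.82 in WT and 15.12, 16.39, 16.15, 16.31 and 15.93 in KO neutrophils. All KO arrays lay below all WT arrays, at a difference of -1.22 (SE 0.27, adjusted p = 0.0356). The call passed in 4 of the 9 fits that left out an array. The 28 neutrophil markers, of which Trem1 is 1, had a median difference of -0.997, near that of Trem1. In the fit on 30 arrays Trem1 was not called in macrophages, at -0.49 (SE 0.44, adjusted p = 0.998), or in microglia, at -1.25 (SE 0.36, adjusted p = 0.9999). The KO signal remained far above the median cluster, and since the deleted part of the gene is not given, a probe outside it would check nothing.

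The comparison asked which genes neutrophils of the injured hemisphere express differently without TREM1. In KO neutrophils 8 of 30 genes for folding in the endoplasmic reticulum rose, as did 7 of 28 for N-glycosylation, 4 of 23 of the citrate cycle and 6 of 21 targets and regulators of the antioxidant factor NRF2. Of 27 immunoreceptors 5 fell and 2 rose. These lists were described because their shares of calls were among the highest of 53 function lists. Few of these calls passed whichever array was left out: 2 of the folding genes, 1 immunoreceptor in each direction, and none for N-glycosylation, the citrate cycle or NRF2. Genes that rose whichever array was left out included the oxysterol receptor Nr1h3, the lysosomal reductase Ifi30 and the chaperone Calr, and those that fell included the sialic acid receptor Siglece. A moderated test in limma on the 9 arrays, with Benjamini-Hochberg adjustment over all 22103 transcript clusters, passed 1084 clusters at an adjusted p under 0.05. Of all clusters, 822 or 3.72% were higher in KO and 262 or 1.19% lower. At least 2-fold changes were 689 higher and 139 lower. Without adjustment 5855 clusters had a p under 0.05. The WT and KO values did not overlap in 971 of the 1084, while over all clusters non-overlap was found for 1221 higher (5.52%) and 1295 lower (5.86%). The median difference of all clusters was -0.13, a slight shift down in KO. Among the calls 75.8% were higher, a share that became 65.0% after quantile normalization and 86.6% after centring each array on its median. When the spread was shared over all 30 arrays, 2370 clusters (10.7%) passed as higher and 2020 (9.14%) as lower. The median SD over clusters was 0.378 in WT and 0.285 in KO neutrophils.

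Each array was then left out in turn, and a call was taken to hold if the cluster passed with the same sign in all 9 of these fits. The number passing ranged from 72 without KO neutrophil 4 to 1904 without WT neutrophil 1. It was 77 without KO neutrophil 1, 81 without KO neutrophil 3, 159 without WT neutrophil 3, 299 without WT neutrophil 2, 619 without KO neutrophil 2, 977 without WT neutrophil 4 and 1766 without KO neutrophil 5. In all, 59 clusters held, 52 higher (0.235% of clusters) and 7 lower (0.0317%), and WT and KO values did not overlap in any of them. Their changes lay between 1.12 and 3.23 log2 units in size. All 1084 calls kept their sign in every fit, their unadjusted p never exceeded 0.00961, and in the fit least favourable to it the median call kept 86.9% of its change. The 59 themselves sat close to the threshold, with adjusted p of 0.0439 to 0.05 without KO neutrophil 3. Just outside stood Fastkd2 of mitochondrial RNA metabolism at 2.36 (SE 0.34, adjusted p = 0.0143), the lymphocyte receptor family gene Ly9 at 2.06 (SE 0.30, adjusted p = 0.014) and the fatty acid desaturase Fads1 at 1.59 (SE 0.23, adjusted p = 0.014), each lost only without KO neutrophil 4. With WT neutrophils 2 and 4 both left out, which leaves 2 WT arrays and was chosen after seeing the data, 26 clusters passed and 12 of the 59 were among them, although all 59 kept their sign.

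**Figure D2:**
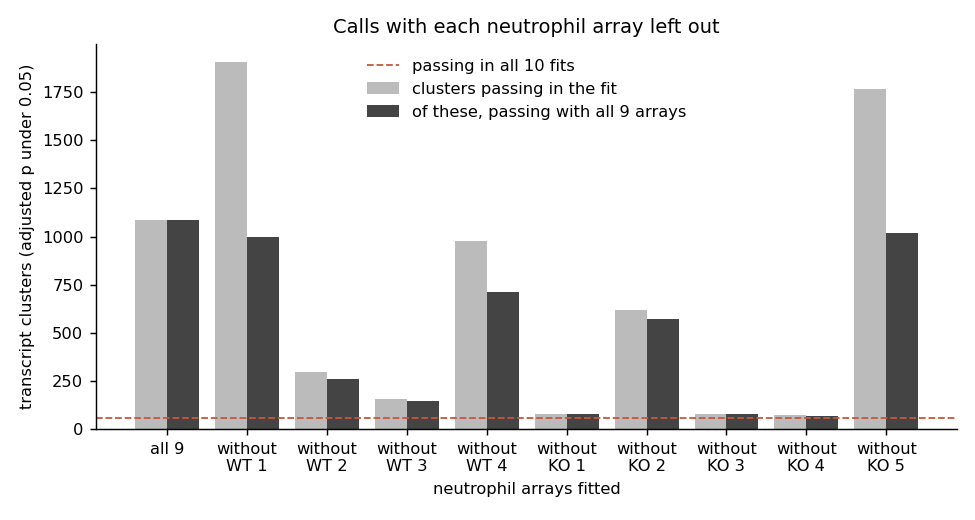
Number of transcript clusters with an adjusted p under 0.05 (bars, from 0) in the fit on all 9 neutrophil arrays and in the 9 fits that each leave out 1 array, with the part that also passed on all 9 arrays. The dashed line marks the 59 clusters that passed in every fit, and the fits without KO neutrophil 1, 3 or 4 passed 77, 81 and 72 clusters.

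The held genes are described below by their known role, a grouping made after their values were seen. How often each role occurs over all clusters was not counted, so the counts do not show that any role was more frequent. Of the 52 higher clusters, 10 belonged to the nucleus and RNA, 8 to lipids and membranes, 6 to lysosomes, endosomes and phosphoinositides, 5 to mitochondria, 5 to surface receptors, 4 to the cytoskeleton, 3 to sugar metabolism and 2 to endoplasmic reticulum chaperones. Another 5 named genes fitted none of these, and 4 clusters had no settled gene name. In 18 of the 52 the WT mean was below 6.63. The plot of genes that passed with any array left out shows the array values of 18 of them.

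**Figure D3:**
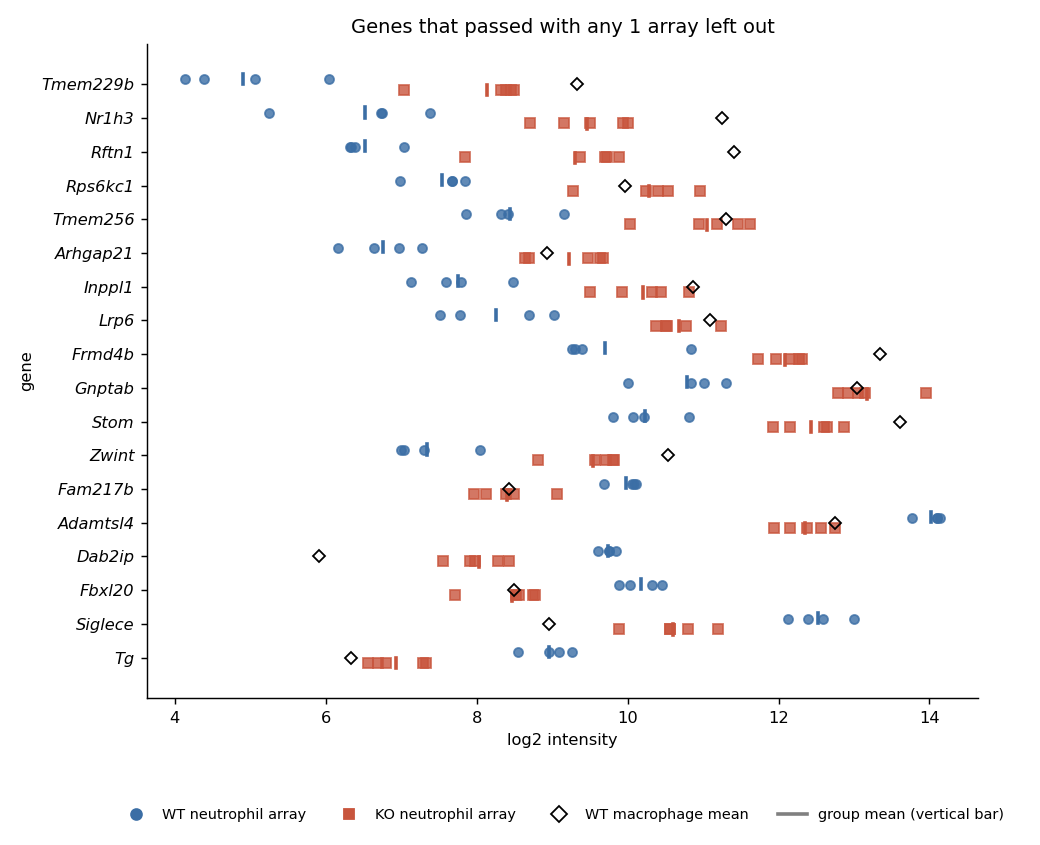
Log2 intensity (horizontal axis) of the 12 higher and 6 lower named genes that kept the largest change when any array was left out, in 4 WT (blue circles) and 5 KO (red squares) neutrophil arrays, with group means as vertical bars and the WT macrophage mean as a diamond. WT and KO values did not overlap for any of the 18 genes, and the macrophage mean lay above the lowest KO value for all 12 higher genes.

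The 8 genes of lipids and membranes rose by 1.19 to 2.94. Nr1h3, the liver X receptor alpha that senses oxysterols and drives cholesterol efflux genes, read 6.73, 6.74, 7.39 and 5.25 in WT and 10.01, 8.71, 9.94, 9.50 and 9.15 in KO neutrophils. Every KO array was above the highest WT array, WT neutrophil 3, and the difference was 2.94 (SE 0.42, adjusted p = 0.0138). Rftn1 encodes raftlin, a lipid raft protein that supports receptor signalling, and read 7.04, 6.34, 6.32 and 6.39 in WT and 9.88, 7.84, 9.71, 9.73 and 9.37 in KO neutrophils. KO neutrophil 2 was the lowest KO array for Rftn1 and still exceeded the WT arrays, with a difference of 2.78 (SE 0.39, adjusted p = 0.0134). Stom, the membrane scaffold stomatin, read 10.22, 10.81, 10.07 and 9.80 in WT and 12.64, 11.92, 12.86, 12.60 and 12.16 in KO neutrophils. Its groups were more than 1 log2 unit apart at their closest and differed by 2.21 (SE 0.26, adjusted p = 0.00974). Fabp3, a fatty acid-binding protein, read 8.39, 8.02, 8.74 and 9.48 in WT and 10.93, 10.20, 11.19, 10.94 and 10.98 in KO neutrophils, and changed by 2.19 (SE 0.30, adjusted p = 0.0134). The lipid phosphatase Plpp2 rose by 2.18, Bscl2, which encodes the lipid droplet protein seipin, by 1.72, Prelid2, of a family of lipid transfer proteins, by 1.91, and Aifm2, a reductase that protects membranes from lipid peroxidation, by 1.19. The WT means of Nr1h3 (6.52), Rftn1 (6.52), Plpp2, Prelid2 and Aifm2 lay below 6.63, so the sizes of their changes are approximate.

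The 6 genes of lysosomes, endosomes and phosphoinositides, the membrane lipids that mark endocytic compartments, rose by 1.75 to 2.74. Ifi30, the lysosomal thiol reductase that unfolds antigens for class II presentation, read 13.61, 13.70, 13.40 and 13.36 in WT and 15.82, 15.08, 15.43, 15.55 and 15.83 in KO neutrophils. Within each genotype its arrays lay close together, and the difference was 2.02 (SE 0.19, adjusted p = 0.00828). Gnptab, which starts the mannose 6-phosphate tag that sends enzymes to lysosomes, read 11.30, 11.02, 10.84 and 10.00 in WT and 13.95, 12.92, 12.79, 13.15 and 13.05 in KO neutrophils, a difference of 2.38 (SE 0.31, adjusted p = 0.0134). Inppl1, the inositol phosphatase SHIP2, read 8.49, 7.60, 7.13 and 7.79 in WT and 10.44, 9.50, 10.81, 10.32 and 9.92 in KO neutrophils, a difference of 2.45 (SE 0.32, adjusted p = 0.0134). For both genes the lowest KO array exceeded the highest WT array. The endosomal phosphatase Ocrl rose by 1.75, and Zfyve9, an endosomal anchor for SMAD proteins of the TGF-beta pathway, by 1.88. Zfyve9 had means of 4.44 in WT and 6.32 in KO neutrophils, both below 6.63, so the size of its change is approximate. Rps6kc1, a kinase-like protein with a phosphoinositide-binding domain, read 7.84, 7.67, 7.67 and 6.99 in WT and 10.96, 9.28, 10.40, 10.54 and 10.24 in KO neutrophils, and differed by 2.74 (SE 0.32, adjusted p = 0.00974). Macrophage means of Rps6kc1 were 9.96 in WT and 9.96 in KO macrophages, below the KO neutrophil mean of 10.28.

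Surface receptors changed in both directions. Siglec1, the sialic acid receptor CD169 of macrophages, read 5.82, 6.05, 6.66 and 6.11 in WT and 8.20, 7.63, 8.52, 8.22 and 8.09 in KO neutrophils, with 3 of 4 WT arrays below 6.63, and rose by 1.97 (SE 0.22, adjusted p = 0.00974). Lrp6, a co-receptor of Wnt ligands, read 7.78, 8.69, 7.51 and 9.03 in WT and 10.51, 10.37, 10.52, 10.77 and 11.24 in KO neutrophils, a difference of 2.43 (SE 0.32, adjusted p = 0.0134). KO arrays of Lrp6 exceeded WT arrays by more than 1 log2 unit throughout. Fcgr2b, the inhibitory Fc receptor for IgG, rose by 1.25 (SE 0.16, adjusted p = 0.0134), the proteoglycan Sdc3 by 1.94 and the TGF-beta co-receptor Eng by 1.17, although Eng remained dim in both genotypes (means 3.59 and 4.76) and did not pass in the fit on 30 arrays. Siglece, an inhibitory sialic acid receptor of neutrophils, read 12.39, 12.59, 12.13 and 13 in WT and 9.89, 11.20, 10.56, 10.80 and 10.56 in KO neutrophils. All KO arrays were lower, and Siglece fell by 1.92 (SE 0.27, adjusted p = 0.0134).

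Of the cytoskeletal genes, Arhgap21, a GTPase activator at the Golgi and cell junctions, read 6.97, 6.64, 7.28 and 6.16 in WT and 9.67, 8.64, 9.63, 8.69 and 9.48 in KO neutrophils, a difference of 2.46 (SE 0.30, adjusted p = 0.0113). Frmd4b, a scaffold for cell polarity proteins, read 10.84, 9.39, 9.27 and 9.30 in WT and 12.32, 11.97, 12.15, 12.27 and 11.73 in KO neutrophils, a difference of 2.38 (SE 0.32, adjusted p = 0.0134). WT neutrophil 1 was more than 1 log2 unit above the other WT arrays for Frmd4b and still below every KO array. Fblim1, the filamin-binding protein migfilin, rose by 1.67, and Ankmy2 by 1.20. Ankmy2 had means of 4.48 in WT and 5.67 in KO neutrophils, both below 6.63, so the size of its change is approximate. Tmem229b, a membrane protein of little-known function, had the largest change that held and read 5.06, 6.04, 4.38 and 4.14 in WT and 8.39, 7.04, 8.50, 8.32 and 8.45 in KO neutrophils. Since the WT values lie below 6.63, the size of the change, 3.23 (SE 0.42, adjusted p = 0.0134), is approximate. Tmem256, another small membrane protein, read 9.15, 8.32, 8.41 and 7.87 in WT and 11.62, 10.03, 11.18, 11.47 and 10.95 in KO neutrophils, a difference of 2.61 (SE 0.35, adjusted p = 0.0134).

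Mitochondrial genes that held were Ndufa11, a subunit of respiratory complex I (1.72), Ethe1, which detoxifies sulfide (1.91), the ribosomal protein Mrpl1 (1.18), the methionine aminopeptidase Metap1d (2.14) and the ribonuclease Lactb2 (2.07). Ethe1 read 11.76, 11.48, 11.32 and 11.45 in WT and 13.62, 12.86, 13.61, 13.91 and 13.05 in KO neutrophils, and the lowest KO array exceeded every WT array. In sugar metabolism the galactosamine kinase Galk2 rose by 1.82, the glucosamine 6-phosphate deaminase Gnpda1 by 1.14 and Extl3, which starts heparan sulfate chains, by 1.71. In the nucleus, changes ranged from 1.12 for Nop10, of the pseudouridylation complex, to 2.20 for the zinc finger gene Zfp146, and included the RNA polymerase subunit Polr2h (1.54), the double-strand break repair protein Rad50 (1.52), the silencing factor Morc2a (1.18) and the antiviral mono-ADP-ribosyltransferase Parp12 (1.36). Zwint, a kinetochore protein, read 7.30, 8.04, 7.04 and 6.995 in WT and 9.82, 8.81, 9.80, 9.57 and 9.71 in KO neutrophils, a difference of 2.20 (SE 0.28, adjusted p = 0.0134). Its KO arrays all lay above its WT arrays. The WT means of Metap1d (6.02) and Zfp146 (6.38) lay below 6.63, so the sizes of their changes are approximate.

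Among the 7 clusters that held as lower, Tg, the thyroglobulin gene, read 9.26, 8.96, 8.55 and 9.09 in WT and 6.80, 7.32, 6.56, 6.70 and 7.28 in KO neutrophils, a difference of -2.03 (SE 0.22, adjusted p = 0.00974). Dab2ip, a RAS GTPase activator that restrains NF-kB signalling, read 9.60, 9.84, 9.75 and 9.75 in WT and 7.56, 7.98, 8.28, 7.91 and 8.43 in KO neutrophils, a difference of -1.70 (SE 0.19, adjusted p = 0.00974). Adamtsl4, a secreted ADAMTS-like protein, read 13.77, 14.10, 14.10 and 14.14 in WT and 12.16, 12.75, 12.38, 11.94 and 12.56 in KO neutrophils, a difference of -1.67 (SE 0.19, adjusted p = 0.00974). For these 3 genes every KO array was lower than every WT array. Fbxl20, a ubiquitin ligase subunit, read 10.32, 9.89, 10.45 and 10.04 in WT and 8.74, 8.57, 8.52, 8.77 and 7.71 in KO neutrophils, a difference of -1.71 (SE 0.24, adjusted p = 0.0134), and Fam217b differed by -1.58 (SE 0.23, adjusted p = 0.014). Siglece has been described above, and the last was a cDNA-named model. Dab2ip was lower in macrophages, at 5.91 in WT and 6.17 in KO macrophages, than in neutrophils of either genotype, and the same held for Siglece at 8.95 in WT and 8.95 in KO macrophages. With the macrophage marker mean of each array as a covariate, the changes were -1.64 (SE 0.54) for Tg, -1.41 (SE 0.47) for Dab2ip and -2.35 (SE 0.56) for Fbxl20. Those of Siglece and Adamtsl4 were smaller than without it, at -0.94 (SE 0.59) and -0.99 (SE 0.42), and none of the 5 had an adjusted p under 0.05.

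Secreted and membrane proteins fold in the endoplasmic reticulum, and 2 of its chaperone genes were among the calls that held. Calr, the calcium-binding chaperone calreticulin, read 11.60, 11.28, 11.07 and 11.73 in WT and 13.88, 12.999, 13.54, 13.57 and 12.66 in KO neutrophils, a difference of 1.91 (SE 0.26, adjusted p = 0.0134). Creld2, a chaperone-associated protein induced by reticulum stress, read 10.66, 10.27, 10.11 and 10.38 in WT and 12.73, 12.003, 12.31, 11.96 and 11.87 in KO neutrophils, a difference of 1.82 (SE 0.21, adjusted p = 0.00974). In both genes every KO array exceeded every WT array, and both calls held. Of 30 measured genes for translocation and folding in the reticulum, 8 rose, 22 missed the threshold and none fell, with 28 of 30 differences positive and a median of 0.95, beside -0.13 over all clusters and a background of 3.72% called higher. The others were Pdia6 (2.60) and Pdia3 (1.08), disulfide isomerases, Canx (1.43), the membrane-bound partner of calreticulin, the luminal Hsp90 chaperone Hsp90b1 (1.68), and the co-chaperones Sdf2l1 (1.56) and Dnajb11 (1.65). Hspa5, the central chaperone BiP, was at 0.97 (SE 0.32, adjusted p = 0.102) and did not pass. Calls of this list other than Calr and Creld2 passed in 2 to 4 of the 9 fits that left out an array. The list mean was 11.69 to 12.40 in WT neutrophil arrays, 12.41 to 13.32 in KO neutrophil arrays and 13.05 to 13.83 in macrophage arrays. With the macrophage marker mean as a covariate the list median was -0.10. After quantile normalization 5 of the 30 passed. The list of the unfolded protein response and of degradation from the reticulum had 2 of 23 members higher, none lower and a median of 0.06.

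The promoters of 5 of the 8 genes that rose in this list matched a known element, the ER stress response element, to which ATF6 and NF-Y bind, and those of Pdia3, Sdf2l1 and Dnajb11 did not. It consists of CCAAT, 9 bases of any kind, and CCACG, and was searched on both strands in RefSeq promoters of GRCm38.p6, from 250 bases before to 50 after each gene's start, a search chosen after the values were seen. It was present for 37 of 27025 genes (0.137%). Of 28 such genes measured here, 5 passed as higher and none as lower, and those 5 were Creld2, Calr, Pdia6, Canx and Hsp90b1. Among genes with a promoter in the table, 5 of 613 called higher (0.816%) and none of 179 called lower carried it, against 0.179% of 15681 tested genes, while the median change of all 28 carriers was 0.14. The 250 bases before the start are shown 5′ to 3′ on the strand of the gene, with each match in capitals. In Calr a second match in capitals, nearer the 5′ end, is the extended E-box TCACGTGA, to which factors of the MiT family that regulate lysosomal genes can bind, and which Ifi30 carries as well. A match on the other strand reads CGTGG, 9 bases, ATTGG.
Calr, chr8:84846932-84847181, minus strand: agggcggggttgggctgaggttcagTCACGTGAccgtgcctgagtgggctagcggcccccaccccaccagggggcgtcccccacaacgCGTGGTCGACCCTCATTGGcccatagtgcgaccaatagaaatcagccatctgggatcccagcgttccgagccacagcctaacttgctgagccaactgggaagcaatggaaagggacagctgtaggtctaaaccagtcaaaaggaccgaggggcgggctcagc
Creld2, chr15:88819396-88819645, plus strand: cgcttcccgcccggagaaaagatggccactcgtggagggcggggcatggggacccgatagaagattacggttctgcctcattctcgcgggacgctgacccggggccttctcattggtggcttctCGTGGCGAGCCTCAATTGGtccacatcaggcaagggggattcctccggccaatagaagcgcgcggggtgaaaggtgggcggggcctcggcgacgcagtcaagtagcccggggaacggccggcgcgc
Pdia6, chr12:17266339-17266588, plus strand: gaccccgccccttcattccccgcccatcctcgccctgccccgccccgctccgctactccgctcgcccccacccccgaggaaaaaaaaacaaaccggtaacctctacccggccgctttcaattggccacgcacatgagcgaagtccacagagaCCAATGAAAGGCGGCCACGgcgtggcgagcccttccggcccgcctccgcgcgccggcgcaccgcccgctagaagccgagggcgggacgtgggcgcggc
Canx, chr11:50325674-50325923, minus strand: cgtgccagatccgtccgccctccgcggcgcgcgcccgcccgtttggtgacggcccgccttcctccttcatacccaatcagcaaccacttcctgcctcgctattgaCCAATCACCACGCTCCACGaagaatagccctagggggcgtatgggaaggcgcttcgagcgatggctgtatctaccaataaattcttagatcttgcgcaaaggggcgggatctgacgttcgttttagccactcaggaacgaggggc
Hsp90b1, chr10:86705445-86705694, minus strand: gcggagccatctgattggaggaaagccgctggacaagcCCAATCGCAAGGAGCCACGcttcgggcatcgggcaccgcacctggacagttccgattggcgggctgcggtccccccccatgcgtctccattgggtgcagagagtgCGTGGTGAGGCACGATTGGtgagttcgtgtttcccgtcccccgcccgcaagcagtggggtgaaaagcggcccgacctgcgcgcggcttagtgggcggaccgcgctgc
Counted from the start, the element lay at -162 to -144 in Calr, -126 to -108 in Creld2, -98 to -80 in Pdia6 and -145 to -127 in Canx, and in Hsp90b1 at -212 to -194 and, on the other strand, at -107 to -89. A match is a description of the sequence and shows neither binding nor use of the site.

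The extended E-box is shown for Ifi30, the named gene among those that held with the smallest SE relative to its change.
Ifi30, chr8:70766664-70766913, minus strand: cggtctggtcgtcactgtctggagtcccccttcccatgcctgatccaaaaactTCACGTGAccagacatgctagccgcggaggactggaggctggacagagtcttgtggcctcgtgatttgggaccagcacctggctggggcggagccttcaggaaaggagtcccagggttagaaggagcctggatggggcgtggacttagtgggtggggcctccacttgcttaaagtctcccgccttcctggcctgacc
The 8-base site lay at -197 to -190 from the start of Ifi30. Over all promoters 1.12% of genes carried it, and so did 1.45% of tested genes, 19 of 613 called higher (3.10%) and 4 of 179 called lower (2.23%). The plain E-box CACGTG, which the extended form contains, was found in 9.25% of tested genes, 14.5% of those called higher and 10.1% of those called lower. The search for GGGA, 2 bases and TTCC, a core of NF-kB sites, found 1.56% of tested genes, 1.31% of those called higher and 1.68% of those called lower. None of the 37 promoters of genes that held as higher matched this core or the C/EBP site TTGCGCAA. Nor did any match the interferon core of GAAA, 2 bases and GAAA. Of tested genes 0.249% carried this C/EBP site and 3.94% the interferon core, so 37 promoters are too few to read anything from this. The interferon core was found in 3.92% of genes called higher and 6.70% of those called lower. The PU.1 core GAGGAAGT was found in 3.53% of tested genes, 4.89% of those called higher and 6.70% of those called lower.

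New proteins receive sugar chains as they enter the reticulum. Of 28 measured genes for this N-glycosylation 7 rose, 21 missed the threshold and none fell, with a median of 1.11. Over all clusters 3.72% were called higher and 1.19% lower. This list and the others described for higher genes were the 8 of 53 with the highest share called higher. Their high counts were thus selected. Alg9, a mannosyltransferase, read 7.74, 8.34, 8.41 and 7.64 in WT and 10.76, 9.74, 11.20, 9.90 and 9.16 in KO neutrophils, a difference of 2.12 (SE 0.39, adjusted p = 0.023). The mannosyltransferase Alg3 rose by 2.17, and the catalytic subunits of oligosaccharyltransferase, Stt3a and Stt3b, by 1.09 and 1.56. Of 20 aminoacyl tRNA synthetases and their partners, which charge tRNAs for translation, 4 rose and none fell, and all 20 differences were positive, with a median of 1.10. They were Eef1e1 (2.09), Farsb (1.81), Gars (1.19) and Aimp1 (1.10). Eef1e1, a subunit of the synthetase complex, read 9.43, 8.49, 8.25 and 7.91 in WT and 11.24, 10.10, 10.67, 10.65 and 10.40 in KO neutrophils, with all KO above all WT arrays. Amino acid transporters had 4 of 23 members higher and none lower: the light chains of heteromeric carriers Slc7a7 (2.14) and Slc7a8 (2.60), the glutamine carrier Slc38a1 (1.81) and the lysosomal carrier Slc36a1 (1.84). No call of these 3 lists held with every array left out in turn: Eef1e1 passed in 7 of 9 such fits, Alg3 and Slc7a7 in 5, Alg9 in 4, Farsb in 3, Stt3b and Slc7a8 in 2 and the remaining N-glycosylation calls in 1 to 4. Array means were 8.73 to 9.45 in WT neutrophil arrays, 9.44 to 10.41 in KO neutrophil arrays and 10.33 to 10.87 in macrophage arrays for glycosylation. For the synthetases they were 8.54 to 9.71 in WT neutrophil arrays, 9.57 to 10.48 in KO neutrophil arrays and 10.69 to 11.12 in macrophage arrays. Under the covariate of macrophage markers the list medians were -0.02, -0.16 and -0.02 in the order given, against 1.11, 1.10 and 0.78.

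The citrate cycle in the mitochondrial matrix feeds the respiratory chain. Of 23 genes of the citrate cycle 4 rose (17.4%, against 3.72% of all clusters), 19 missed the threshold and none fell. In all, 22 differences were positive, and the median was 0.67. Fh1, fumarate hydratase, read 12.88, 12.14, 12.43 and 12.95 in WT and 13.97, 13.88, 14.12, 13.83 and 13.66 in KO neutrophils. Its groups did not overlap, and Fh1 rose by 1.29 (SE 0.20, adjusted p = 0.017). Idh2, the NADP-linked isocitrate dehydrogenase, rose by 2.47, Suclg1, of succinyl-CoA ligase, by 2.15, and Sdhc, of succinate dehydrogenase, by 0.76. Of 29 genes for mitochondrial protein import and quality control 5 (17.2%) rose, 24 missed the threshold and none fell, with 27 positive and a median of 0.75. They were the translocase parts Timm10 (1.16), Timm13 (1.51), Timm23 (1.70) and Tomm70a (1.61) and the chaperone Hspa9 (1.54), and after quantile normalization 1 of the 29 passed. No call of either list held. Fh1 passed in 6 of the 9 fits that left out an array, Suclg1 in 5, Idh2 in 4 and Sdhc in 2, and the import genes in 2 or 3. Citrate cycle means were 9.11 to 9.72 in WT neutrophil arrays, 9.63 to 10.45 in KO neutrophil arrays and 10.43 to 10.86 in macrophage arrays. With the macrophage marker covariate both medians were negative, at -0.23 and -0.48.

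NRF2 is the transcription factor that drives defence against oxidants and heme. Of 21 of its targets and regulators 6 rose (28.6%, against 3.72% of all clusters), 15 missed the threshold and none fell, with a median of 0.37. Blvrb, a biliverdin reductase of heme breakdown, read 11.65, 10.64, 10.35 and 11.54 in WT and 13.33, 12.27, 13.23, 13.19 and 13.09 in KO neutrophils. All KO arrays exceeded all WT arrays, at a difference of 1.98 (SE 0.32, adjusted p = 0.0187). Hmox1, heme oxygenase 1, read 13.32, 13.17, 13.27 and 13.002 in WT and 14.51, 13.83, 14.43, 14.37 and 13.76 in KO neutrophils, a difference of 0.99 (SE 0.20, adjusted p = 0.0282). The others were Txnrd1 (2.04) and Srxn1 (1.15), which reduce thioredoxin and oxidised peroxiredoxin, Gclc (2.31) of glutathione synthesis and the exporter Abcc1 (1.58). In this list 2 of 21 genes had both macrophage means above the KO neutrophil mean, and array means were 9.65 to 10.46 in WT neutrophil arrays, 10.43 to 10.81 in KO neutrophil arrays and 9.54 to 9.97 in macrophage arrays. Of 28 genes of the pentose phosphate, glutathione and thioredoxin systems 9 (32.1%) rose and 1 fell (3.57%, against 1.19% of all clusters). Apart from Txnrd1, Srxn1 and Gclc, which both lists hold, the higher genes were the mitochondrial reductase Txnrd2 (1.29), the peroxiredoxins Prdx1 (0.85) and Prdx2 (1.46), and the glutathione transferases Gstm1 (2.28), Gstp1 (1.09) and Gsto1 (1.65). The gene that fell was Gsr, glutathione reductase (-0.81). No call of either list held. Blvrb passed in 6 of the 9 fits that left out an array, Hmox1 in 4 and Txnrd1, Gclc, Srxn1 and Abcc1 in 2 each, and the other calls in 2 to 5. In the NRF2 list the WT and KO ranges overlapped. In the fit with the macrophage marker covariate the medians were -0.40 for NRF2 and -0.30 for the larger list.

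**Figure D4:**
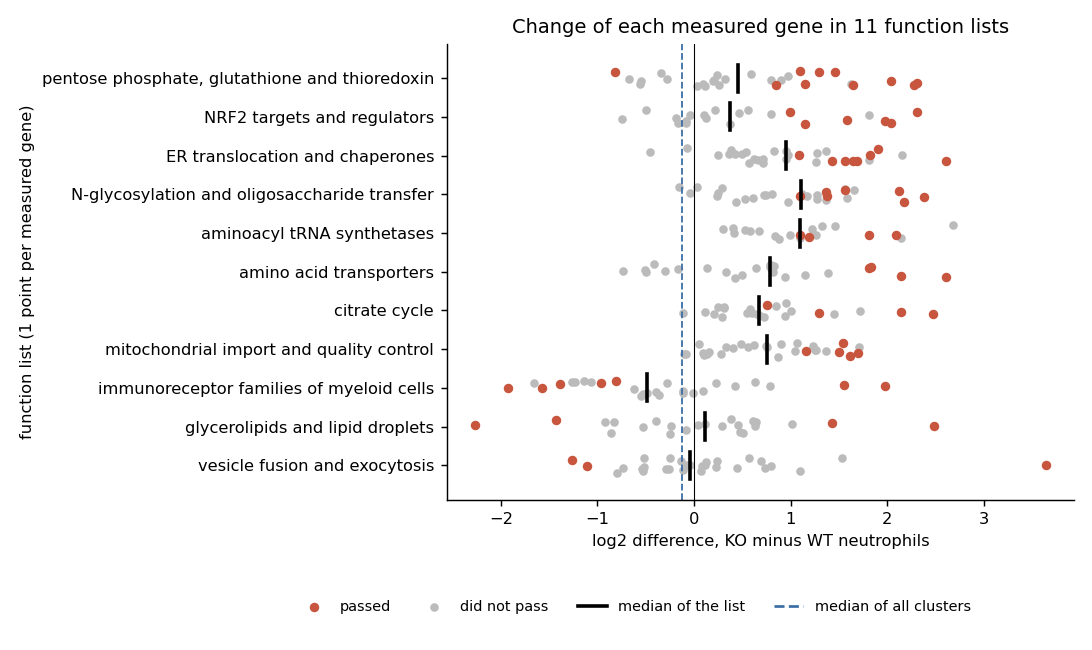
Log2 difference between KO and WT neutrophils (horizontal axis) for each measured gene of 11 function lists, with genes that passed in red, others in grey, the median of each list as a black bar and the median of all clusters, -0.13, as a dashed line. The lists of protein folding, glycosylation, tRNA charging and mitochondria lie mostly to the right of 0, and the immunoreceptor list mostly to the left.

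Among the 53 function lists, immunoreceptor families of myeloid cells had the most members lower. Of 27 measured, 5 fell, 2 rose and 20 did not pass, with a median of -0.49, against a background of 1.19% called lower. Cd33, an inhibitory sialic acid receptor, read 14.53, 15.28, 14.90 and 14.60 in WT and 12.90, 13.42, 13.59, 13.30 and 13.96 in KO neutrophils. Every KO array was lower, and the difference was -1.39 (SE 0.24, adjusted p = 0.0200). Clec5a, an activating lectin receptor that also signals through DAP12, read 14.04, 14.85, 14.69 and 14.58 in WT and 12.16, 13.59, 13.06, 13.10 and 12.89 in KO neutrophils, a difference of -1.58 (SE 0.28, adjusted p = 0.0212). Its ranges did not overlap either. The other members that fell were Siglece, Cd300lf (-0.81) and Cd300ld (-0.96), and those that rose were Siglec1 and Cd200r4 (1.55). Siglece and Siglec1 held, Cd33 and Cd200r4 passed in 5 of the 9 fits that left out an array, Clec5a and Cd300lf in 4 and Cd300ld in 1. The list mean was 11.79 to 12.29 in WT neutrophil arrays, 11.25 to 11.88 in KO neutrophil arrays and 10.91 to 11.23 in macrophage arrays, so the KO range overlapped the WT range and lay above the macrophage range. With macrophage markers as the covariate the median was -0.50, about as large as without it, and no member passed.

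Lipid droplet genes split. Of 23 measured genes of glycerolipids and droplets 2 rose and 2 fell, with a median of 0.11. Each count was 8.70% of the list, against 3.72% called higher and 1.19% called lower over all clusters. Dgat2, which makes triglyceride, read 11.35, 12.94, 12.78 and 12.74 in WT and 9.96, 10.49, 10.29, 9.66 and 10.52 in KO neutrophils. All KO arrays lay lower, at -2.26 (SE 0.34, adjusted p = 0.0148). Fabp4, a fatty acid-binding protein of fat cells and macrophages, read 11.12, 10.50, 11.47 and 10.27 in WT and 14.18, 12.20, 13.60, 14.35 and 12.31 in KO neutrophils, a difference of 2.49 (SE 0.49, adjusted p = 0.0266). Fabp5 rose by 1.43, and the hormone-sensitive lipase Lipe was lower (-1.43). None of the 4 calls held: with an array left out Dgat2 passed in 7 of 9 fits, Fabp4 and Fabp5 in 4 and Lipe in 2. In vesicle fusion, 1 of 29 genes rose, Rab3il1 (3.64), and 2 fell, Stx11 (-1.26), a syntaxin of granule release in leukocytes, and Vamp5 (-1.11). Stx11 read 7.92, 8.45, 8.44 and 9.05 in WT and 6.74, 7.57, 7.20, 7.05 and 7.44 in KO neutrophils, lower in every KO array, and passed in 4 of 9 fits with an array left out, against 5 for Rab3il1 and 3 for Vamp5. With so few calls, and 3.45% of the list higher against 3.72% of all clusters, nothing is read about vesicle fusion as a group. After median centring the median of this list was 0.07, the opposite sign to the -0.04 of the scale used here, while the other 10 lists described kept their sign under both scalings. With WT neutrophils 2 and 4 both left out, no member of these 11 lists passed, and the 11 medians kept their sign.

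Several lists of signalling and RNA processing gave no calls. None of 25 genes of the JAK-STAT pathway and its SOCS inhibitors passed (median -0.25), nor did any of 22 of phosphoinositide and G protein signalling (-0.19), 26 SR and hnRNP splicing proteins (0.32) or 25 of ubiquitin conjugation (0.39). Without adjustment 5, 6, 7 and 5 of them had a p under 0.05 in limma, in that order, beside 5855 of all 22103 clusters. In the fit on 30 arrays 6, 4, 7 and 4 members passed, beside 10.7% higher and 9.14% lower over all clusters. With 3.72% of all clusters called higher and 1.19% lower on the 9 arrays, lists of this size would hold few calls. Nothing is read from their absence. Families of sensory receptors, not known for expression in leukocytes, were set beside these. Of 1091 olfactory receptors none rose and 13 (1.19%) fell, with a median of -0.33. Among 318 vomeronasal receptors 3 (0.943%) were lower, with a median of -0.38. Both shares were near the 1.19% called lower over all clusters. Both medians lay below the -0.13 of all clusters.

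Reference levels in the other sorted cells were set beside the calls. Of the 822 clusters called higher, 642 (78.1%) had both macrophage means above the KO neutrophil mean, against 59.9% of all clusters with a positive difference. Among the 52 that held the count was 40 (76.9%). Both macrophage means lay below the KO mean for 8 of the 52 (15.4%), against 12.2% of the 822 and 27.0% of all clusters with a positive difference. The 8 were Rps6kc1, Galk2, Arhgap21, Fabp3, Fblim1, Ifi27l2a and 2 clusters without a settled name. Of the 262 called lower, 170 (64.9%) had both macrophage means below the KO neutrophil mean, against 53.9% of all clusters with a negative difference. With the macrophage marker mean as a covariate no cluster passed and 1403 had an unadjusted p under 0.05. The marker mean did not overlap between genotypes, SEs in this fit were a median 2.2 times as large for the calls that were higher, and the marker mean and the genotype can hardly be told apart. The change kept its sign for 626 of the 822 higher and 233 of the 262 lower calls, at a median of 0.30 and 0.57 times its size. All 59 that held kept their sign, 32 with an unadjusted p under 0.05. Among the named genes of the 59 the largest changes in this fit were in Lrp6, at 3.73 (SE 0.68), Plpp2 at 2.87 (SE 0.62) and Fabp3 at 2.78 (SE 0.74). Most of the 59 changed by less than without the covariate, at a median of 0.70 times and at the least 0.26 times their size. Nr1h3 went from 2.94 to 0.77 (SE 0.74), Frmd4b from 2.38 to 0.71 (SE 0.55) and Tmem256 from 2.61 to 0.71 (SE 0.58). A further covariate was the median of 2015 clusters at 11 or more in every macrophage and microglia array. WT macrophage and microglia means of these clusters lay within 1 of each other, and their level in neutrophils did not enter the choice. This median was 12.42 to 12.91 in WT and 12.85 to 13.21 in KO neutrophils. With it no cluster passed, 2137 had an unadjusted p under 0.05, and all 1084 calls kept their sign. With the cartilage marker mean 7 clusters passed and 3539 had an unadjusted p under 0.05.

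For 43 of the 822 higher clusters (5.23%) the KO neutrophil mean also exceeded the macrophage and microglia means of both genotypes, and the same held for 929 of all 8408 clusters with a positive difference. These genes were picked out after their values were seen and are given without a test. They included genes for the breakdown of heme and peroxides: Blvrb, Hmox1, Slc48a1, which exports heme from lysosomes, Cat, catalase, Prdx1, Txnrd1, Srxn1 and Gstm1. Cat read 13.24, 11.98, 11.44 and 11.89 in WT and 14.74, 13.51, 14.64, 14.35 and 13.27 in KO neutrophils, with means of 12.69 in WT and 13.03 in KO macrophages. Slc48a1 read 11.56, 11.39, 10.66 and 11.04 in WT and 12.99, 12.21, 12.74, 13.27 and 11.65 in KO neutrophils, with means of 10.87 in WT and 10.88 in KO macrophages. For both, the KO arrays lay above the WT arrays by a narrow margin, and the KO mean was above the next highest group mean by 0.93 and 1.41. A second set handles lipid and lysosomal cargo: Fabp3, Fabp4, Fabp5, the lipid phosphatase Plpp3, the acid lipase Lipa, the cholesterol transporter Npc1, Lamp1, Lgmn, Grn, Creg1 and Gpnmb. Plpp3 read 10.43, 9.31, 9.43 and 8.59 in WT and 11.59, 11.57, 12.37, 11.93 and 10.00 in KO neutrophils, with means of 8.14 in WT and 8.09 in KO macrophages. Its KO mean was above the next highest group by 2.05, the largest such gap, although WT and KO arrays overlapped. Lipa read 12.93, 12.20, 11.22 and 11.70 in WT and 14.14, 13.54, 14.05, 13.79 and 12.81 in KO neutrophils, with means of 12.84 in WT and 12.76 in KO macrophages, and its WT and KO arrays overlapped too. Other genes of the 43 belonged to neither set, among them Kif3a, with a gap of 1.25, Wwp1, Vat1, Kmt5a, F7 and E2f1. Fabp3 and Ifi27l2a were the members of the 43 whose calls held.

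The change with genotype was then compared between cell types in the fit on 30 arrays. Over all clusters, the neutrophil change differed from the macrophage change in 1518 (6.87%) and from the microglia change in 1280 (5.79%). Of the 59 that held, 52 differed from macrophages and 49 from microglia, always in the direction of the neutrophil change. None of the 59 passed within macrophages or microglia, where 1 and 0 of all 22103 clusters passed, so this does not set the 59 apart. For the 52 held as higher the median change was 1.88 in neutrophils, 0.01 in macrophages and 0.15 in microglia. Ifi30 had a difference between the changes of 1.96 (SE 0.24) against macrophages and 1.92 (SE 0.22) against microglia. For Metap1d the macrophage difference was -1.35 (SE 0.45), opposite in sign, and the test of the difference gave 3.49 (SE 0.62, adjusted p = 0.00248). Siglec1 (0.0934), Creld2 (0.0707), Fblim1 (0.192) and Fbxl20 (0.101) were among those whose difference from macrophages missed the adjusted p of 0.05. The same 59 were chosen for their neutrophil change, which makes a difference from other cells more likely, so the count describes them and is not a separate finding.

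**Figure D5:**
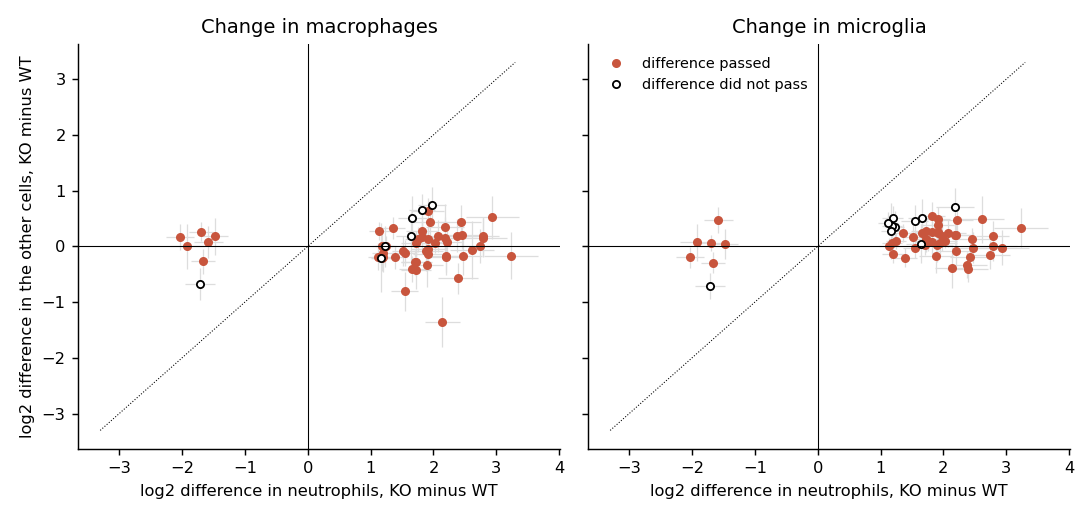
Change with genotype (log2 difference, KO minus WT, with SE as bars) of the 59 clusters that held, in neutrophils (horizontal axes) and in macrophages or microglia (vertical axes), with the dotted line marking equal change. The changes in macrophages reach at most 1.35 in size, against 1.12 to 3.23 in neutrophils, and filled points are those whose difference between cell types passed, 52 for macrophages and 49 for microglia.

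Position in the genome was examined because a knockout can carry flanking sequence of another strain. Trem1 lies at chr17:48232713-48246927 of GRCm38.p6. Of 29 clusters within 1 Mb of it 1 passed, Trem2, which was higher, and of 103 within 5 Mb 3 passed, all higher: Trem2, Srf and Rftn1. The median change was -0.05 within 1 Mb and -0.06 within 5 Mb. Chromosome 17 had 4.36% of its 963 clusters called, within the range of 3.02% on the X to 6.83% on chromosome 16. Genes called higher spanned a median of 22.1 kb and those called lower 19.2 kb, against 17.7 kb over all 19508 annotated clusters. In WT the median level was 8.86 for genes called higher and 10.6 for genes called lower, against 6.71 over all.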

How the data were processed

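RNA (0.6 to 0.8 ng in all) was hybridised to Affymetrix Clariom HT arrays, per the labels' protocols. The deposited intensities are linear values that the authors summarised per transcript cluster with RMA, per the submitters' processing notes; the version was not given in the sources used here. They were taken to log2 without further normalization. Genotypes were compared on the 9 neutrophil arrays with limma 3.58.1 (R 4.3.3; lmFit, eBayes, 7 residual degrees of freedom, two-sided, Benjamini-Hochberg over 22103 clusters, threshold 0.05), and each array was left out in turn. Differences between cell types came from a fit on all 30 arrays. The script was tested on simulated data.

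Clusters were named through the platform annotation, 19508 with 1 symbol and 2595 without, and promoters came from RefSeq, GRCm38.p6. A gene with several clusters was represented by the brightest. Named genes were Trem1; the 12 held calls per direction with the largest change kept in the least favourable fit, among genes at or above the median level whose groups did not overlap; the members with the smallest p in the 8 lists with the highest share of members called higher and the 3 with the highest share called lower; and genes lost without a single array. Genes outside this rule, the role groups, the promoter motifs and the genes above all other groups were chosen after their values were seen. All members and lists were chosen with earlier results of these data known. p-values measure the spread between arrays, whose number limits the precision. Alternatives were 30 arrays, quantile normalization, median centring, array and genotype weights, a robust prior with trend, a filter on dim clusters, 1 cluster per gene, a replicate block and 3 covariates. Python 3.11.15 and matplotlib 3.10.9 drew the figures.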

Additional observations from a re-analysis of the deposited data

Results flagged for a closer look

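Within the 9 neutrophil arrays, 46 groups of values were tested by Dixon's ratio for an array far from the rest of its genotype. They were those of named genes and of the means of the plotted marker lists. Chance alone flags about 1 in 20 groups, and no array stood apart in a marker mean. An array stood apart at the low end of the KO group for Tmem229b (7.036), Rftn1 (7.84), Zwint (8.81) and Fbxl20 (7.713). For Tmem229b, Rftn1 and Zwint this was KO neutrophil 2, and for Fbxl20 it was KO neutrophil 5. An array stood apart at the high end of the WT group for Rftn1 (7.036) and Frmd4b (10.84), in both genes WT neutrophil 1. It stood apart at the low end of the WT group for Adamtsl4 (13.77) and Fam217b (9.687). In each of these genes the WT and KO values did not overlap, which was a condition of their choice.

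The change with genotype differed between cell types, by limma on 30 arrays, for 52 of the 59 held calls against macrophages and for 49 against microglia. Over all clusters 6.87% and 5.79% differed, and among all 1084 calls 65.0% and 64.9%. The 59 were chosen for their neutrophil change, on arrays that also enter this test. A high share was thus built into the choice, and the counts describe the 59 and are not a separate finding.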

How the results depend on the processing

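The number of clusters called, 1084, was 4390 on 30 arrays and 2081 with array weights. It was 0 with the covariate of clusters bright in macrophages and microglia. With the macrophage marker mean it was 0, and with the cartilage marker mean 7. Leaving out 1 array gave 72 to 1904, and leaving out both WT neutrophils 2 and 4, an alternative chosen after seeing the data, gave 26. It stayed within 1.5 times, at 738 to 1207, under quantile normalization, median centring, genotype weights, a robust prior with trend, the filter on dim clusters, 1 cluster per gene and the replicate block (1207). The 59 held calls became 1943 on 30 arrays, 209 with array weights, 17 after quantile normalization, 6 with a robust prior and trend, 0 with genotype weights, 0 with the replicate block and 0 with each of the 3 covariates. The replicate numbers did not pair the arrays: same-numbered WT and KO deviations correlated at 0.26, -0.01, -0.04 and -0.20. Differences from macrophages, 1518, became 994 with the replicate block and 827 to 2790 with an array left out, and differences from microglia, 1280, became 724 to 2611. With the macrophage marker covariate the sign reversed for Txnrd1 (-0.47), Gclc (-1.38), Alg3 (-0.12), Farsb (-0.43), Slc7a7 (-0.015), Slc7a8 (-0.63), Idh2 (-0.77), Tomm70a (-0.46), Timm13 (-0.47), Rab3il1 (-0.22), Stx11 (0.15) and Stx8 (-0.099). Among the 66 genes chosen by the naming rule, no other changed sign under the alternatives run; other genes named in the text were not followed singly. Over all calls that covariate kept the sign of 626 of 822 higher and 233 of 262 lower. The cause of these shifts was not tested. Clusters below the median level, 6.63, give changes of uncertain size.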
